A study of Caenorhabditis elegans with 2 samples.

Results

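The regions described here were the intronic ELT-1 peaks that lay away from promoters. The assay was ChIP-seq, in which DNA bound by a protein is precipitated with an antibody and sequenced, and the submitters' list of 1400 peaks that passed the irreproducible discovery rate (IDR) was read on genome build ce11. A nuclear peak was counted as intronic when its summit, the base that the submitters marked as its highest point, lay inside a protein-coding gene, in no exon of any gene, and outside every promoter window. Such a window covered the 1000 bp before each 5′ end of a protein-coding transcript and the 200 bp after it. By this rule 253 of 1377 nuclear peaks were intronic (18.4%, 95% Wilson interval 16.4% to 20.5%), and they lay in 219 host genes. The other nuclear peaks comprised 619 promoter peaks, 372 distal intergenic peaks and 133 exonic peaks. A further 119 intronic summits lay inside a promoter window and 22 lay in an exon of a noncoding gene, and neither set was counted. If exons of noncoding genes were allowed, 275 peaks met the rule.

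All samples were mixed-stage embryos of hermaphrodite Caenorhabditis elegans, strain OP354, genotype unc-119(tm4063) III; wgIs354, in which wgIs354 is a transgene that makes ELT-1 with GFP and FLAG at its C-terminus. They formed 1 group of 2 biological replicates, with no second condition, so the comparisons were between classes of peaks, between members, and between replicates. Both descriptions state that GFP was precipitated, whereas the antibody field reads elt-1. The descriptions were used here. Whole embryos were used, so a peak could not be placed in a cell type. The labels give no promoter, copy number or extent for the transgene, and any part of its own elt-1 sequence in the peaks at elt-1 was not tested. Read depth was unknown.

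ELT-1 is a GATA factor, a zinc finger protein that binds sites with a GATA core, and it directs cells of the early embryo to become epidermis. Introns of Caenorhabditis elegans can hold enhancers, stretches that regulate a gene's transcription from outside its promoter, and long first introns are a common place for them. GATA factors commonly recognise WGATAR, in which W is A or T and R is A or G. An ELT-1 peak in an intron marks a place where the tagged protein was enriched, and it does not show that the host gene is regulated.

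The summit windows of 10 intronic peaks are printed below as examples, chosen in part by whether they held a GATA site. Each reaches 100 bp to either side of the summit and is taken from the WBcel235 genome (RefSeq), the assembly called ce11, written 5′ to 3′ on the plus strand, with the WGATAR sites of either strand in capitals. A site on the opposite strand reads as its reverse complement, with TATC in place of GATA. The first 7 were among the 12 intronic peaks of highest signal, with 1 peak taken per interval, and each held a site. sprr-1 lies at chrX:15470074-15470274, egl-18 at chrIV:1911281-1911481, elt-1 at chrIV:9617479-9617679 and gst-42 at chrX:11726541-11726741. spsb-1 lies at chrII:15213831-15214031, pod-2 at chrII:1141817-1142017 and nhr-25 at chrX:13011976-13012176. cam-1 (chrII:9301128-9301328) held the most sites after sprr-1, and unc-2 (chrX:2713126-2713326) and F53E4.1 (chrV:15661049-15661249) were strong peaks with no site.
sprr-1: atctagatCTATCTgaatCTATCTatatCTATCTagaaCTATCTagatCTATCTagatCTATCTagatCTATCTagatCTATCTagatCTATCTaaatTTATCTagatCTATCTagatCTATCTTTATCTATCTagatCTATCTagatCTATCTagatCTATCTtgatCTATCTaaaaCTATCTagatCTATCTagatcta
egl-18: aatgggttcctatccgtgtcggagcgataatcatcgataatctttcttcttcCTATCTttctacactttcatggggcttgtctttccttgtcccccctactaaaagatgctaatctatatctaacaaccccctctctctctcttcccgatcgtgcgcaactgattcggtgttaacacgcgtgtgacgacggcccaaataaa
elt-1: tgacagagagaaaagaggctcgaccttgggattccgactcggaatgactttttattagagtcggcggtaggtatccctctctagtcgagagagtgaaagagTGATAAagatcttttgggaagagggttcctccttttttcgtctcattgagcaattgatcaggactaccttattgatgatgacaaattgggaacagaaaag
gst-42: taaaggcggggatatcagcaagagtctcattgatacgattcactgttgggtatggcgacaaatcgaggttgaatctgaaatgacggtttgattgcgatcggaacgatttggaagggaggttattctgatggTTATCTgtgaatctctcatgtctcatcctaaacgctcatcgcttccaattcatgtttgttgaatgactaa
spsb-1: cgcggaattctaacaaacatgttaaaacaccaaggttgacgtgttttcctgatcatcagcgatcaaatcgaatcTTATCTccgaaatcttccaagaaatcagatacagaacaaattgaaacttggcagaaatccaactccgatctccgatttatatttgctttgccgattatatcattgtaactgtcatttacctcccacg
pod-2: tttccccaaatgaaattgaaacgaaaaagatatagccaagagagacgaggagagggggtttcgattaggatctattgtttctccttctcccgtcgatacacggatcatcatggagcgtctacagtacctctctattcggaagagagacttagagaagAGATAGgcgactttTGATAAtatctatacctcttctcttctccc
nhr-25: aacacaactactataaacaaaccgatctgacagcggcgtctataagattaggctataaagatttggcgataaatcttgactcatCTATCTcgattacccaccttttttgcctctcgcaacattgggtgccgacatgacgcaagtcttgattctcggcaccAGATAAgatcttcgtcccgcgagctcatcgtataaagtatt
cam-1: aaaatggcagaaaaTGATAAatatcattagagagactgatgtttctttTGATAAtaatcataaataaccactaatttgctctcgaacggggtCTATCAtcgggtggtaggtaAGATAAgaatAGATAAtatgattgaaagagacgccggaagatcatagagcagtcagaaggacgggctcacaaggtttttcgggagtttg
unc-2: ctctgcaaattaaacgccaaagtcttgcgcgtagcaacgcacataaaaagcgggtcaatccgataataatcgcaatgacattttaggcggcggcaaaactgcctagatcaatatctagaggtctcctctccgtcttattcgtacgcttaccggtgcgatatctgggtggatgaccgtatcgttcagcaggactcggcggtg
F53E4.1: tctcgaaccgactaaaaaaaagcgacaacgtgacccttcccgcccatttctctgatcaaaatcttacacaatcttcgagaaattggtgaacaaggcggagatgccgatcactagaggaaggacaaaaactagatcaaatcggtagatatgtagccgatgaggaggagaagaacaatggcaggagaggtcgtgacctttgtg

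The sprr-1 window was a tandem array: 20 WGATAR sites stood in it, 18 of them AGATAG and 2 AGATAA, most of them 10 bp from the next on the same strand. The windows at egl-18, elt-1, gst-42 and spsb-1 held 1 site each, and those at pod-2 and nhr-25 held 2. The 5 sites at cam-1 were of several forms and were spread over the window. Outside these sites, GAGAGA or its complement stood in several windows, with 2 matches each in those of elt-1 and pod-2.

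The strongest intronic peak in the list, and the second strongest of all nuclear peaks, lay in the last intron of sprr-1 (chrX:15469937-15470448, intron 9 of 9, 423 bp long). Its summit at 15470174 had a signal of 468. Signal is the authors' score of a peak, without a stated unit, and can be compared only within a list. The strongest relaxed peak at the same place had a signal of 314 in replicate 1 (rank 3 of 30000) and 155 in replicate 2 (rank 2 of 26001). The same interval was listed again with a summit at 15470374 and a signal of 136, 6 WGATAR sites, and the same peak of each replicate. The whole interval of 512 bp held 29 WGATAR sites, and its G+C content at the summit was 27.4%, against 41.6% ± 6.16 (SD) over the 253 members. The part of read placement in repeated sequence was not tested.

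The second strongest lay in the first intron of fasn-1, which encodes fatty acid synthase, 474 bp from the nearest annotated 5′ end (chrI:8985841-8986236). It had a signal of 270, with 179 in replicate 1 (rank 9) and 95.3 in replicate 2 (rank 8), and no WGATAR site within 100 bp of its summit. ptr-23, a patched-related gene, had an intronic peak of 160 (chrI:14907932-14908229; 111 in replicate 1, rank 25, and 47.0 in replicate 2, rank 45) with 3 sites. pod-2, the acetyl-CoA carboxylase gene that acts one step before fatty acid synthase, had peaks in intron 3 (125, chrII:1141816-1142025) and in intron 2 (45.9, chrII:1138626-1138975). The stronger pod-2 peak had a signal of 81.1 in replicate 1 (rank 50) and 43.3 in replicate 2 (rank 54). Both lipid genes thus had intronic peaks among the 12 of highest signal, with and without a WGATAR site.

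egl-18 and elt-1 themselves encode GATA factors. egl-18, which maintains seam cells of the epidermis, had 3 intronic peaks and no promoter peak. Its first intron, 11092 bp long in the transcript used, held summits of signal 227 (1911381) and 143 (1911584) in 1 interval (chrIV:1911221-1911673), which shared 1 relaxed peak in each replicate, of 145 in replicate 1 (rank 15) and 82.8 in replicate 2 (rank 11). The other lay at chrIV:1915003-1915149 with a signal of 87.0, with 38.9 in replicate 1 (rank 295) and 37.4 in replicate 2 (rank 89). elt-1 had intronic peaks of 137 (chrIV:9617466-9617659; 81.4 in replicate 1, rank 48, and 54.9 in replicate 2, rank 27) and 80.7 (chrIV:9618085-9618434), with 1 site each. The strongest peak of the whole list, 823, also lay in an elt-1 intron, but its summit was 273 bp from the 5′ end of a shorter transcript, so it was classed as a promoter peak, as was 1 more intronic summit of elt-1 (205).

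The other peaks among the 12 of highest signal lay in gst-42, spsb-1, nhr-25 and sax-3. gst-42, of the glutathione S-transferase family, had 133, with 98.3 in replicate 1 (rank 33) and 36.9 in replicate 2 (rank 93). spsb-1 had 125, with 80.2 in replicate 1 (rank 52) and 40.1 in replicate 2 (rank 70). nhr-25, a nuclear receptor gene needed for epidermal development and moulting, had 119 (chrX:13012007-13012182), with 64.6 in replicate 1 (rank 90) and 49.0 in replicate 2 (rank 38). sax-3, the Robo receptor gene of axon guidance, had 117, with 80.6 in replicate 1 (rank 51) and 44.3 in replicate 2 (rank 50). All 12 ranked within the first 100 relaxed peaks of each replicate, 10 of the 12 held a WGATAR site, 5 lay in a first intron and 5 lay on X. These counts cover 10 host genes, since sprr-1 and egl-18 each gave 2 summits of 1 interval with the same ranks. The signal comes from the pool of the same replicates, so high ranks are in part built in. At the other end of the list, C46A5.4 (27.88), ogdh-2 (27.90) and grl-15 (27.95) had the lowest signals, just above 27.82, the highest signal of a pooled relaxed peak outside the list. These 3 peaks held 2 WGATAR sites each.

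Over the 253 members the signal in the IDR list ran from 27.9 to 468 with a median of 39.0, against medians of 38.9 at promoter peaks and 39.6 at distal peaks. In replicate 1 all 253 members met a relaxed peak, with signals from 8.37 to 314 and a median of 25.8. In replicate 2, 251 members met one, with signals from 2.40 to 155 and a median of 13.9. The members in cnt-2 and lsm-8 met none there. Ranks reached from 3 to 6794 in replicate 1 and from 2 to 22017 in replicate 2. Across the 251 members with a peak in both, Spearman's rho between the replicates' signals was 0.367, against 0.342 over promoter peaks and 0.323 over distal peaks. These are descriptions, since the points share 2 libraries and were chosen on pooled signal.

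**Figure D1:**
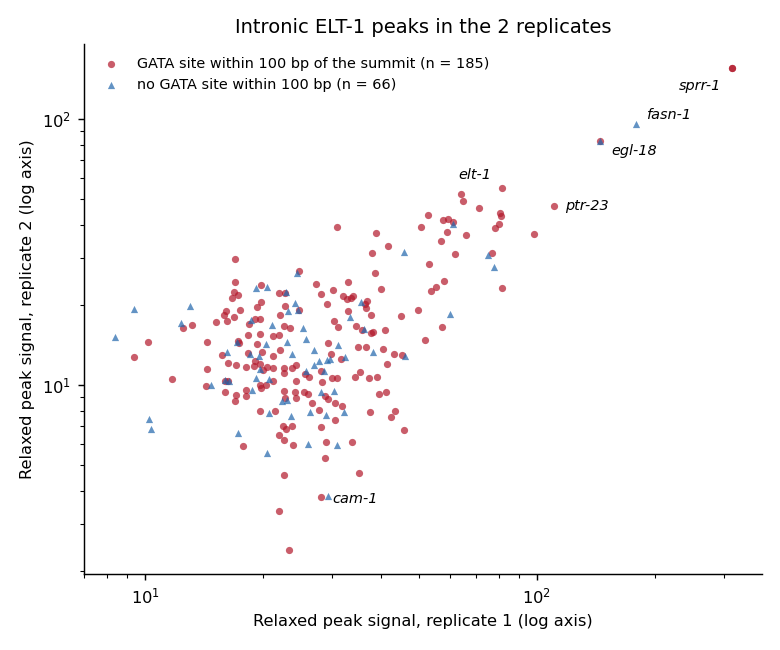
Signal of the strongest relaxed peak at each of 251 intronic peaks in replicate 1 (x axis) and replicate 2 (y axis), both on log axes without units, with circles for peaks with a WGATAR site within 100 bp of the summit and triangles for those without. The labelled peaks of sprr-1, fasn-1 and egl-18 stand at the top right in both replicates, while cam-1 was at 28.2 in replicate 1 and 3.78 in replicate 2.

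Of the members, 202 lay among the 1400 strongest relaxed peaks of replicate 1, 174 among those of replicate 2, 140 among both, and 17 among neither. Among the strongest tertile of members by signal, 80 of 85 lay in both sets (94.1%), against 12 of 84 in the weakest tertile (14.3%). The list's signal comes from the pool of the same replicates, so this gradient is in large part fixed by how the tertiles were made, and nothing is read from it. The share in both sets was 55.3% (140 of 253) at intronic peaks, against 53.3% (330 of 619) at promoter peaks and 56.7% (211 of 372) at distal peaks. Neither difference passed Fisher's exact test over peaks (adjusted exact p = 0.868 for each). All such tests here were two-sided, with Benjamini-Hochberg adjustment over 52 tests, and they measure counting error between lists of peaks, since peaks are not replicates. Signals above the median of nuclear peaks were found at 49.8% of intronic peaks, against 48.5% of promoter peaks and 51.3% of distal peaks (adjusted exact p = 0.868 for each). No difference of intronic peaks from the other classes was thus detected in signal or in rank in both replicates. Above a signal of 100 stood 23 of 253 intronic peaks (9.09%), against 23 of 619 promoter peaks (3.72%) and 18 of 372 distal peaks (4.84%), a split chosen after the values were seen and not tested.

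WGATAR sites were frequent at the intronic summits. At least 1 site lay within 100 bp of the summit at 185 of 253 intronic peaks (73.1%, 95% Wilson interval 67.3% to 78.2%). In flanking windows, of equal length, 1000 bp away on either side and free of IDR peaks, the share was 180 of 472 (38.1%, 33.9% to 42.6%). The odds ratio was 4.41 (Fisher's exact test, adjusted exact p = 3.08e-18). The test did not pair each summit with its own flanking windows, and those windows were not required to lie in introns. With only those wholly in intron sequence that the rule allowed, 91 of 220 held a site (41.4%). The odds ratio was then 3.86 (Fisher's exact test, adjusted exact p = 7.65e-11). Every other contrast with flanking windows in these results used the full set and was not repeated with intronic flanks alone. Flanking windows were poorer in G+C (36.9% on average) than summit windows (41.6%), and the part of base composition in the difference was not tested. At least 2 sites stood at 89 intronic summits (35.2%), against 54 flanking windows (11.4%; odds ratio 4.20, adjusted exact p = 1.79e-12).

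Against promoter peaks, of which 366 of 619 held a site (59.1%, 55.2% to 62.9%), the intronic share was higher (odds ratio 1.88, adjusted exact p = 6.07e-04). Mean G+C was 41.6% in both classes. The call was lost, with the same direction, with a promoter window reaching 2000 bp upstream (odds ratio 1.42, adjusted exact p = 0.215), with the strongest 50% of peaks (1.45, adjusted exact p = 0.452), and without replicate 1 (1.50, adjusted exact p = 0.0505). Distal intergenic peaks held a site in 262 of 372 windows (70.4%, 65.6% to 74.8%), and the difference from intronic peaks did not pass (odds ratio 1.14, adjusted exact p = 0.868). In this respect the intronic peaks stood closer to the distal peaks than to the promoter peaks, though the distance between those differences was not tested.

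**Figure D2:**
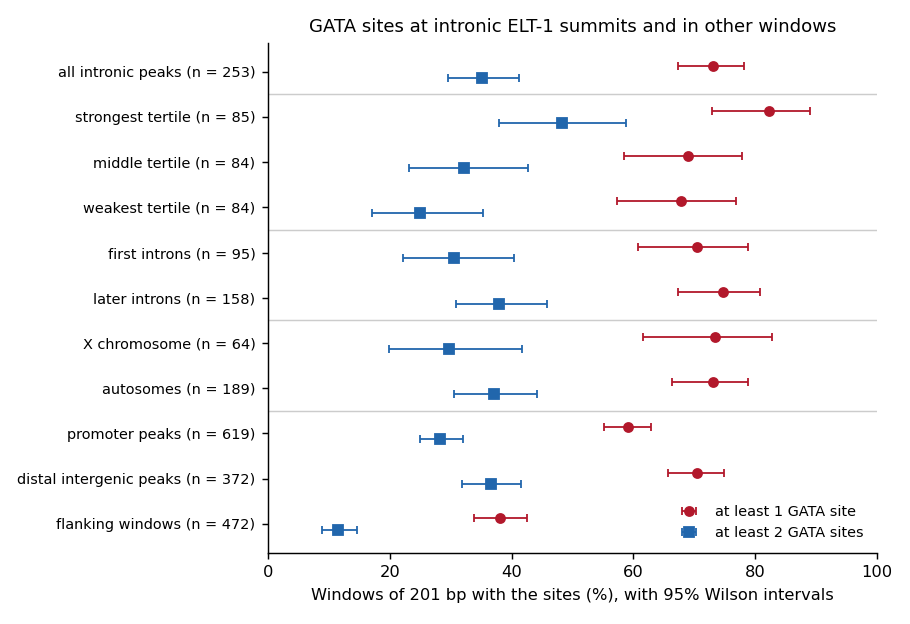
Percentage of windows (100 bp to each side of the summit) with at least 1 (circles) and at least 2 (squares) WGATAR sites, with 95% Wilson intervals, for all intronic peaks, for subsets of them by signal, intron and chromosome, and for promoter peaks, distal intergenic peaks and flanking windows. All intronic peaks stand at 73.1% for at least 1 site and flanking windows at 38.1%.

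Sites were concentrated at the summit, as the density profile shows. WGATAR density was 8.70 sites per kb in the 50 bp before the summit and 7.51 in the 50 bp after it, against 1.82 to 3.56 in the bins more than 500 bp upstream. Over the whole windows it was 6.65 sites per kb at intronic peaks, 5.16 at promoter peaks, 6.15 at distal peaks and 2.62 in flanking windows, and 6.18 at intronic peaks without the sprr-1 pair. In all intron sequence that the rule allowed, 26.6 Mb, the density was 2.17. Among the 185 members with a site, the centre of the nearest lay within 25 bp of the summit in 88 (47.6%) and within 50 bp in 145 (78.4%), with a median distance of 26.5 bp.

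**Figure D3:**
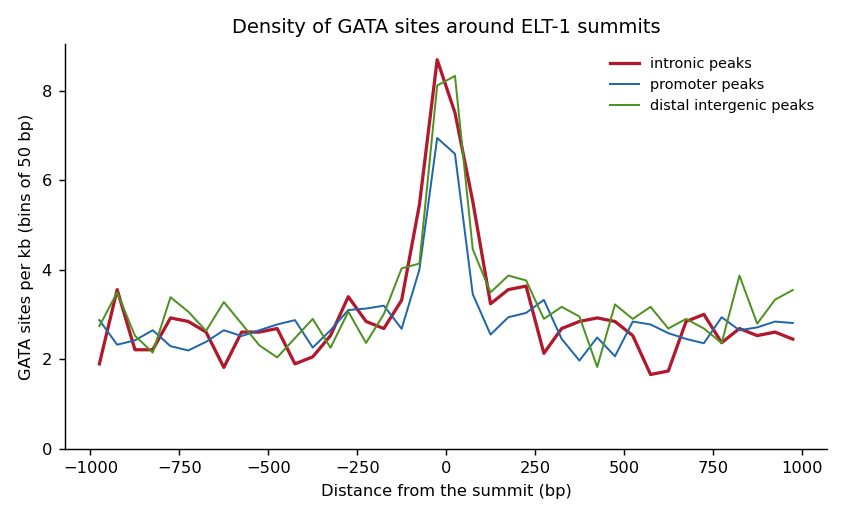
WGATAR sites per kb (y axis) in bins of 50 bp by distance from the summit in bp (x axis), for intronic, promoter and distal intergenic peaks. The intronic line peaks at 8.70 sites per kb beside the summit.

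Most windows with a site held few. Of the 253 members, 68 held no WGATAR site, 96 held 1, 54 held 2, 25 held 3 and 7 held 4. cam-1, the gene of a ROR receptor tyrosine kinase, held 5 at a peak of modest signal (31.8, with 28.2 in replicate 1, rank 616, and 3.78 in replicate 2, rank 12048). After the sprr-1 and cam-1 windows, the strongest with 4 sites were those of spp-28 (54.2), which encodes a saposin-like protein, and mrp-1 (47.0), which encodes an ABC transporter. Of 26 neighbouring pairs of sites on the same strand at 10 bp, 21 were in the sprr-1 windows. Outside sprr-1, 71 of 129 neighbouring pairs lay on the same strand (55.0%), so no orientation predominated.

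The forms of the site were not equally frequent. AGATAA stood at 120 intronic summits (47.4%), against 59 flanking windows (12.5%; odds ratio 6.32, adjusted exact p = 1.02e-22) and 228 promoter peaks (36.8%; odds ratio 1.55, adjusted exact p = 0.0206). That last difference was lost without replicate 1 (1.12, adjusted exact p = 0.750) and under 3 other settings. AGATAG was also more frequent than in flanks (21.7% against 6.14%, odds ratio 4.24, adjusted exact p = 2.03e-08), and so was CGATAA (19.8% against 6.99%, odds ratio 3.28, adjusted exact p = 4.57e-06), which lies outside the WGATAR definition. TGATAA (24.1% against 18.2%, adjusted exact p = 0.190) and TGATAG (11.1% against 10.4%, adjusted exact p = 0.868) did not pass. The longer AGATAAGA stood at 22 intronic summits (8.70%) and in 2 flanking windows (0.424%; odds ratio 22.4, adjusted exact p = 6.35e-08), against 9.05% of promoter peaks (adjusted exact p = 1).

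Motifs other than GATA sites were frequent at the same summits. GAGAGA stood at 87 intronic summits (34.4%), against 81 flanking windows (17.2%; odds ratio 2.53, adjusted exact p = 2.65e-06), CGTCTC at 49 (19.4%) against 37 (7.84%; odds ratio 2.82, adjusted exact p = 6.82e-05), and AGACGCAG at 19 (7.51%) against 12 (2.54%; odds ratio 3.11, adjusted exact p = 0.0148). Promoter peaks held GAGAGA in 35.7%, CGTCTC in 18.6% and AGACGCAG in 10.02% of windows, and distal peaks in 35.8%, 19.9% and 8.60%, and none of these 6 differences from intronic peaks passed. The share of windows with these motifs was thus similar in all 3 classes, with no difference detected. In all allowed intron sequence GAGAGA occurred at 0.560 and CGTCTC at 0.185 sites per kb, against 5.21 and 1.12 in the member windows. Overlapping matches were counted, and repeats in the windows of cdh-9 (38), daf-16 (21) and aakg-1 (18) gave 77 of the 265 GAGAGA sites. Without these 3 windows, named after their values were seen, the density was 3.74.

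A search over all 2080 6-mers put a GATA site first. Against flanking windows, 134 6-mers were more frequent at intronic summits (6.44% of those tested) and 98 were less frequent (4.71%) by Fisher's exact test at an adjusted p of 0.05. AGATAA had the smallest p, and 64 of the 134 held GAT or its complement ATC (47.8%), against 11.2% of all 6-mers. Of the 98 less frequent 6-mers, 54 had at most 1 G or C, and AAAATT led them (23.7% of intronic windows against 57.6% of flanks). Against promoter peaks 0 6-mers were more frequent (0%) and 0 less frequent (0%), with 171 at an unadjusted p under 0.05 (8.22%). The closest was CTAATC, at 47 intronic summits (18.6%) against 50 promoter peaks (8.08%, adjusted exact p = 0.0513). Against distal peaks 0 were more frequent (0%) and 0 less frequent (0%), with 83 at an unadjusted p under 0.05 (3.99%).

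The 68 members without WGATAR included strong peaks. fasn-1 was the strongest of them, and 5 of the 23 intronic peaks above a signal of 100 held no site, among them unc-2, which encodes a calcium channel subunit (113, with 75.2 in replicate 1, rank 63, and 30.9 in replicate 2, rank 142). Their median signal was 37.7, against 40.6 for the 185 members with a site. Any GATA core stood in 50 of the 68 (73.5%), against 162 of the 292 flanking windows without WGATAR (55.5%). CGATAA stood in 21 of the 68 (30.9%), against 24 of the 292 (8.22%), and GAGAGA in 30 (44.1%) against 47 (16.1%). These splits were not tested. Neither a GATA core nor any of the other motifs searched stood in 7 of the 68, and the same count was not made in flanking windows. GAGAGA stood in 57 of 185 members with WGATAR (30.8%), against 30 of 68 without (44.1%), and this difference did not pass (odds ratio 0.564, adjusted exact p = 0.163).

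Stronger intronic peaks held sites more often, but the test did not pass. WGATAR stood at 70 of 85 peaks in the strongest tertile by signal (82.4%), against 57 of 84 in the weakest tertile (67.9%; odds ratio 2.21, adjusted exact p = 0.125). With AGATAA in its place the shares were 54 of 85 (63.5%) and 31 of 84 (36.9%), and this difference passed (odds ratio 2.98, adjusted exact p = 0.00401). At least 2 WGATAR sites stood at 48.2% of the strongest tertile and 25% of the weakest. AGACGCAG went the other way, at 1 of 85 of the strongest (1.18%) and 11 of 84 of the weakest (13.1%), which was not tested. The G+C content was 41.0% ± 5.28 (SD over peaks) in the strongest tertile and 42.0% ± 6.70 in the weakest. In the next 1400 nuclear pooled relaxed peaks below the IDR list, 232 were intronic by the same rule (16.6%), and 140 of these held WGATAR (60.3%, 95% Wilson interval 53.9% to 66.4%).

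Intronic peaks were most dense in long introns. The median intron that held a peak was 3151 bp long, while the median over bases of the allowed intron sequence was 936 bp. Introns of 2000 bp or more held 163 members (64.4%), against 28.5% of the allowed sequence, and introns under 500 bp held 29 (11.5%), against 28.9% of it. Introns over 10000 bp carried 24.9 peaks per Mb, those of up to 500 bp 3.76, and all together 9.50. The gene lsy-22, of the Groucho family of corepressors, held 5 peaks in its first intron of 11392 bp, of signal 104, 42.1, 39.9, 34.9 and 29.1.

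First introns held 95 of the 253 members (37.5%, 95% Wilson interval 31.8% to 43.7%), against 21.8% of the allowed sequence. Each intron was numbered in the transcript with the longest coding sequence among those with an intron at the summit, so peaks of 1 host could be numbered in different transcripts. Where any host transcript could count, 117 members lay in a first intron (46.2%, against 28.6% of the allowed sequence), and where every one had to, 87 did (34.4%, against 20.2%). Density in first introns was above that in later introns in each of the 6 classes of intron length, with the largest ratio in introns over 1000 and up to 2000 bp (14.2 against 6.96 peaks per Mb) and the smallest in introns over 5000 and up to 10000 bp (24.8 against 24.0). These densities were not tested, and the thinnest class held 4 first-intron members. Peaks in first introns did not differ detectably from those in later introns in WGATAR (70.5% against 74.7%, adjusted exact p = 0.868) or in signal above the members' median (52.6% against 48.1%, adjusted exact p = 0.868). Summits lay 1667 bp from the nearest protein-coding 5′ end at the median (206 to 11641 bp), and in 218 members (86.2%) that end belonged to the host. Within 500 bp of the 5′ end of a noncoding RNA gene, with piRNA genes and pseudogenes left out, lay 46 members (18.2%), against 5.33% of the allowed sequence.

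**Figure D4:**
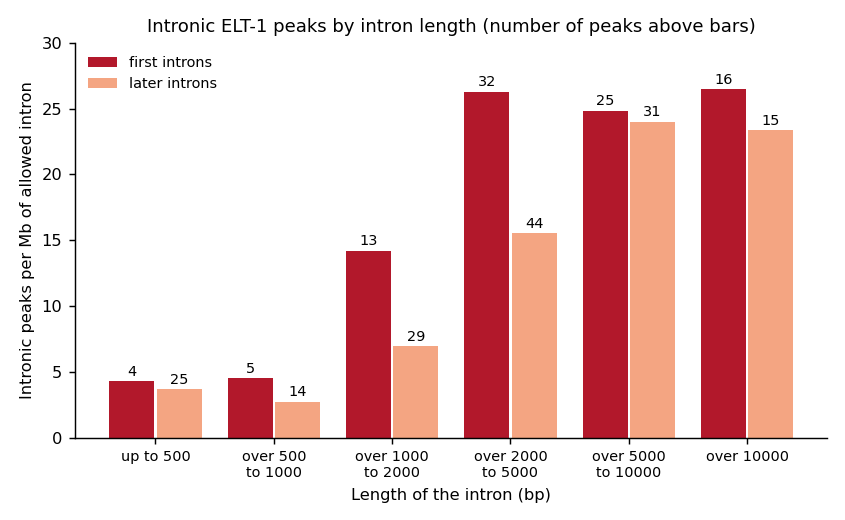
Intronic peaks per Mb of allowed intron sequence (y axis) by the length of the intron in bp (x axis), in first introns (left bars) and later introns (right bars), with the number of peaks above each bar. First introns of up to 500 bp held 4 peaks (4.27 per Mb) and those over 10000 bp held 16 (26.5 per Mb).

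By chromosome, X held 64 members (25.3%, 95% Wilson interval 20.3% to 31.0%), against 16.8% of the allowed sequence. The density on X was 14.3 peaks per Mb, chromosome II had 13.7, and chromosome V was lowest with 5.98. The share on X was 23.1% for promoter peaks (adjusted exact p = 0.868) and 25.3% for distal peaks (adjusted exact p = 1), and neither difference from intronic peaks passed. Signal stood above the members' median at 60.9% of X members, against 46.0% of autosomal members, which did not pass (odds ratio 1.83, adjusted exact p = 0.151).

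CGTCTC was rarer at intronic peaks on X, at 4 of 64 (6.25%, 2.46% to 14.997%), than on autosomes, at 45 of 189 (23.8%, 18.3% to 30.4%; odds ratio 0.213, adjusted exact p = 0.00839). Mean G+C differed little, 41.0% on X and 41.8% on autosomes. Promoter peaks held the motif in 18.2% of windows on X and 18.7% on autosomes, and distal peaks in 20.2% on X and 19.8% on autosomes. In the flanking windows of the intronic peaks it stood in 6 of 121 on X (4.96%) and 31 of 351 on autosomes (8.83%), so the share was lower on X there too, a difference that was not tested. Whether the X difference was larger at intronic peaks than in those other windows was not tested. The call was lost under 5 of 12 alternatives, with odds ratios of 0.115 to 0.319 over all 12, and among these it was lost without replicate 1 (0.292, adjusted exact p = 0.0708). WGATAR stood at 73.4% of X members and 73.0% of autosomal members (adjusted exact p = 1).

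Among protein-coding genes with allowed intron sequence, 219 of 17309 were hosts (1.27%), and 193 of the 219 held 1 peak. Host genes had a median of 5.31 kb of allowed intron, against 0.683 kb over all such genes, and the share of hosts was 0.0849% with up to 500 bp and 17.8% with over 10000 bp. Genes with a promoter peak made up 3.58% of the same 17309 genes (619), and of the 219 hosts 37 had one (16.9%), among them fasn-1, elt-1, spsb-1 and nhr-25. The share of all such genes with a promoter peak was 3.21% with up to 500 bp of allowed intron and 6.61% with over 10000 bp. Of the 62 hosts with over 10000 bp, 12 had a promoter peak. Besides lsy-22, 5 genes held 3 peaks each. They were egl-18, daf-5 (a Sno and Ski family gene of the dauer pathway), Y48C3A.5, swah-1 and Y67D8A.2, and none of the 6 had a promoter peak. Of the 26 hosts with 2 or more peaks, 18 had them all in 1 intron.

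Genes that specify or maintain the epidermis had the highest shares of hosts among the lists examined, which were drawn up with results of these data known. Of 30 epidermal regulators with allowed intron, 7 were hosts (23.3%), against 1.27% of all genes. They carried 11 peaks, 81.4 per Mb against 9.50 over all members, with a median signal of 87.0 against 39.0, and 10 of the 11 lay among the strongest 1400 of both replicates. Of the 11, egl-18 carried 3 and elt-1 carried 2. The counts include 2 egl-18 summits that shared 1 interval and 1 relaxed peak in each replicate. After egl-18, elt-1 and nhr-25, the hosts were egl-27 (100, with 66.0 in replicate 1 and 36.5 in replicate 2), a homologue of the metastasis-associated factor MTA1, and bro-1 (71.4, with 30.9 and 39.2 in replicates 1 and 2), which encodes the partner of a Runx factor in seam cells. vab-3, the Pax6 gene, held 54.7 and 38.7 and lin-1, an ETS factor gene, held 47.7. The seam and GATA factor list overlapped this one, with 6 of 20 hosts (30%), and added pop-1 (36.2), the TCF factor of Wnt signalling, and sys-1 (28.8), a beta-catenin.

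**Figure D5:**
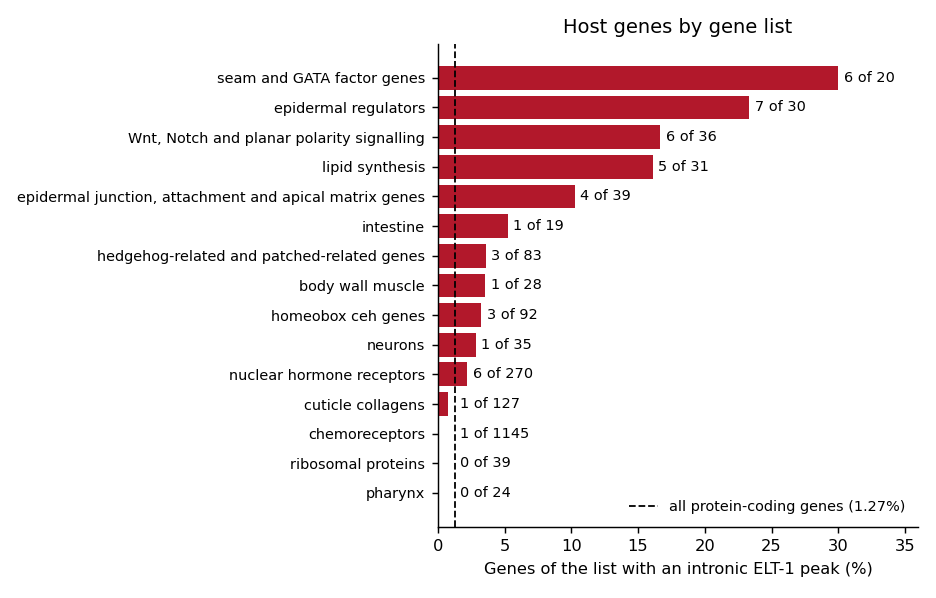
Share of the genes of each list that hold an intronic ELT-1 peak (x axis, %), with the number of hosts of the genes with allowed intron beside each bar and the share over all protein-coding genes with allowed intron as a dashed line. Seam and GATA factor genes stand highest at 30%, and pharynx and ribosomal protein genes at 0.

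Signalling and lipid genes came next. Wnt, Notch and planar polarity genes had 6 hosts of 36 (16.7%), among them mig-1, a Frizzled receptor gene (56.9), dsh-1, a Dishevelled gene (34.9), cam-1 (31.8) and lag-1 (29.6), which encodes the DNA-binding factor of the Notch pathway. The remaining hosts, pop-1 and sys-1, were also on the seam and GATA factor list. The 6 peaks in these Wnt, Notch and planar polarity genes had a median signal of 33.3, below the 39.0 over all members. They made 48.1 per Mb of allowed intron, against 9.50 over all members. Lipid synthesis genes had 5 hosts of 31 (16.1%) and 7 peaks, 134 per Mb. Beyond fasn-1 and pod-2 these were pcyt-1 (39.4) and pmt-1 (37.2), both of phosphatidylcholine synthesis, and acs-1 (29.3), an acyl-CoA synthetase gene. pmt-1 held 4 WGATAR sites and pcyt-1 held none.

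Further epidermal and transcription factor lists were examined. Junction, attachment and apical matrix genes had 4 hosts of 39 (10.3%), namely spc-1 (alpha spectrin, 52.0), ajm-1 (an apical junction protein, 42.3), hmr-1 (cadherin, 38.8) and vab-10 (a spectraplakin of hemidesmosomes, 33.9 and 33.7). Hedgehog-related and patched-related genes had 3 of 83 (3.61%), ptr-23, wrt-6 (36.7) and grl-15. The list drawn up for cuticle collagens had 1 of 127 (0.787%), col-99 (36.3). Whether the col-99 product is a collagen of the cuticle was not examined. Collagen genes had little intron to hold a peak, 0.0450 Mb in all, and their 22.2 peaks per Mb rested on 1 peak. Nuclear hormone receptors had 6 of 270 (2.22%), led by nhr-25, nhr-48 (51.3), nhr-43 (48.2) and nhr-3 (42.3), and 2 of their 6 peaks held WGATAR. Homeobox genes had 3 of 92 (3.26%), vab-3, ceh-43 (49.1), a Distal-less homologue, and alr-1 (47.9), an aristaless homologue. Per Mb of allowed intron, junction, attachment and apical matrix genes carried 21.8 peaks and hedgehog-related and patched-related genes 17.8. Homeobox genes carried 16.8 and nuclear hormone receptors 14.6, against 9.50 over all members.

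The lists of other tissues had at most 1 host each, which is too few to order them. Body wall muscle genes had 1 host of 28 (3.57%; act-4, an actin, 37.5), intestinal genes 1 of 19 (5.26%; act-5, the actin of intestinal microvilli, 39.3), neuronal genes 1 of 35 (2.86%; unc-31, of neuropeptide release, 31.1) and chemoreceptors 1 of 1145 (0.0873%; sra-12, 36.5). No host was found among 24 pharyngeal genes, with 0.0294 Mb of allowed intron, or among 39 ribosomal protein genes, with 0.00425 Mb. The shares for muscle, intestine and neurons lay above the 1.27% over all genes, and that for chemoreceptors lay below it. Per Mb of allowed intron, however, muscle (7.91 peaks) and neurons (8.31) lay below the 9.50 over all members. Intestine (27.5) lay above it and chemoreceptors (1.27) below it, each density resting on 1 peak. Most hosts, 182 of 219, were on no list, and the 209 peaks in them had a median signal of 38.6, against 40.9 for the 44 peaks in listed genes.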

How the data were processed

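ELT-1 ChIP-seq peaks were taken from lists that the authors deposited for mixed-stage embryos, with 2 biological replicates in 1 group, as numbered in the labels. Per the text lists of files, the authors called relaxed peaks in each replicate and in the pool (30000 peaks in replicate 1, 26001 in replicate 2 and 30000 in the pool) and made the IDR-thresholded list from them. Which aligner and which peak caller were used, in what versions, and at what IDR threshold, is not given in any source used here. The signal of a peak is the deposited value of the authors' peak caller, on a scale not stated to be shared by the lists, and it served to order, select and describe peaks of the same list. No file gives a read depth, and hence no counting error of signals could be given. Lists on ce10 were not used.

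Summits on ce11 were placed on the WBcel235 sequence (RefSeq), with genes from Ensembl release 115. No peak reached past its chromosome's end. Promoter windows came from 29785 transcript starts of the 19985 genes that code for protein. Each intron was numbered in the transcript with the longest coding sequence among those with an intron at the summit, with ties broken by transcript name. Each window for motifs reached 100 bp to either side of a summit, and both strands were read. Overlapping matches were counted: AGATAA is a form of WGATAR, as are AGATAG and both forms that begin with T, and AGATAAGA holds AGATAA. A member met a replicate's peak when they shared at least 1 bp. Shares were compared by Fisher's exact test with Benjamini-Hochberg adjustment, over 52 share tests and over 2080 6-mers, with a threshold of 0.05. Intervals are 95% Wilson intervals and cover counting error only, since peaks are not replicates and the spread between cultures could not be measured. The 6-mer and position steps were tested on simulated data. Tests were run in SciPy 1.17.1, tables were handled in pandas 2.3.3 and numpy 2.4.6 under Python 3.11.15, and figures were drawn in matplotlib 3.10.9.

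The members and the 15 gene lists were chosen with earlier results of these data known, so list counts carry no test. Members were named by rule: the 12 of highest signal, the 5 with most WGATAR sites (ties by signal), hosts of at least 3, up to 4 hosts of each list, the 3 of lowest signal, and elt-1, egl-18, nhr-25, sprr-1, fasn-1 and ptr-23. cnt-2, lsm-8, unc-2, F53E4.1 and further list hosts were named after their values were seen. Alternatives changed the promoter window, the gene types, the summit, merged regions, the strongest 50% of peaks, motif windows and forms, flanks and replicates. Leaving out a replicate meant using the 1400 strongest relaxed peaks of the other. Allowing exons of noncoding genes, leaving out sprr-1 and numbering introns in any or every host transcript were added after the data were seen, as were all alternatives for AGATAA against promoter peaks and for CGTCTC on X.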

Additional observations from a re-analysis of the deposited data

How the results depend on the processing

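WGATAR at intronic summits against flanks kept its direction and its call under all 16 alternatives (odds ratios 3.17 to 6.88). The share of members in first introns stayed between 34.4% and 40.9%, except for 46.2% where a first intron of any host transcript counted. With the strongest 50% of nuclear peaks, which removes members by construction, 126 members in 115 hosts were left, and the other 9 alternatives gave 176 to 297 members. For the results below the cause was not tested.

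WGATAR against promoter peaks lost its call with a window reaching 2000 bp upstream (odds ratio 1.42) and with the strongest 50% (1.45), and leaving out 1 replicate gave 1.50 to 2.07, without a call in the absence of replicate 1. WGATAR in the strongest against the weakest tertile passed with a window of 500 bp upstream (2.64), with AGATAA in its place (2.98) and with noncoding exons allowed (2.63).

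The remaining changes of direction were in results with no call. Against distal peaks, WGATAR gave 0.936 with 2000 bp, 0.986 with the strongest 50%, 0.859 with motif windows of 150 bp to each side, and 0.873 to 1.28 without 1 replicate. GAGAGA against promoter peaks gave 1.01 at midpoints. CGTCTC against promoter peaks gave 0.937 with 500 bp, 0.916 with 2000 bp, 0.923 with all gene types, 1.00 at midpoints, 0.980 with the strongest 50%, 0.942 and 0.968 in windows of 50 bp and 150 bp to each side, and 0.795 to 0.886 without 1 replicate. Signal above the median gave 1.02 against distal peaks with 2000 bp, and 0.923 to 1.15 against promoter peaks without 1 replicate. The X share gave 0.896 against promoter peaks with all gene types, and against distal peaks 0.908 with 500 bp, 0.963 with all gene types and 0.995 with merged regions. Rank in both replicates against distal peaks gave 1.04 with 500 bp, 1.02 with 2000 bp, 1.02 with all gene types, 1.07 with the strongest 50%, and 1.71 with the top 3000. None of these passed.

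Results above rest on 1 list from 2 replicates, with no second condition and unknown depth. No paired analysis of conditions was possible because there was only 1 group. Flanking windows belonged to particular summits, but the tests against them were unpaired.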
